A study of Rattus norvegicus with 12 samples.

Results

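Left ventricles of rats at the opposite corners of a 2 by 2 experiment were compared: normal dietary sodium with an angiotensin II infusion against low dietary sodium without it. The arrays were chosen by their titles, which name diet, infusion and replicate, and 6 of the 12 arrays of the series belong here, 3 in each group. All animals were male Sprague-Dawley rats, an outbred strain, and all ate a diet with 60% fructose for 8 weeks, so the low sodium group is no untreated control. The first group, called normal sodium with AngII, had 0.64% NaCl in that diet and received angiotensin II (AngII) under the skin at 200 ng/kg/min during the last 4 weeks. The second, called low sodium, had less than 0.01% NaCl and no infusion. The other 2 groups, normal sodium without infusion and low sodium with AngII, entered the same model and are used for comparison. Each diet was given to 40 rats, the age is not in the labels, and no pooling of animals is stated. Because nothing states that arrays hold separate animals beyond their replicate numbers, the p-values measure only the spread between samples within groups. That spread was pooled over all 12 arrays, 3 per group.

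AngII is the peptide hormone of the renin-angiotensin system. It constricts vessels, raises aldosterone and sodium retention, and acts on heart cells through its type 1 receptor. In the ventricle it is known for driving hypertrophy of cardiomyocytes and deposition of collagen between them, and a high salt intake aggravates both. Stretched or overloaded cardiomyocytes secrete natriuretic peptides, which promote sodium excretion and oppose the hormone. Lower sodium intake without infusion and normal intake with infusion lie at opposite corners of the design. The labels describe the study as one of salt restriction and cardiac damage in a metabolic syndrome model.

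Values are log2 signals with each array's own 75th percentile set to 0, so a negative value is a signal below that percentile, and a difference of 1 is a doubling. A level on this scale depends on the probe and is compared only between arrays. The 75th percentile itself lay between 1643.4 and 1988.3 intensity units on the 6 arrays, with local backgrounds of 20.5 to 29.5 and no saturated spot. Correlations across probes were 0.988 to 0.992 between arrays of 1 group and 0.984 to 0.992 between the groups (probes are not independent). The markers showed heart muscle: all 16 measured adult contractile genes were far above background on all 6 arrays, at levels of 2.84 to 8.24. As a list they do not tell ventricle from atrium. The number of arrays limits the precision of every value below.

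No probe passed the test. At a Benjamini-Hochberg adjusted p under 0.05, limma called 0 of 20020 probes (0%), and the smallest adjusted p was 0.132. At an unadjusted p under 0.05 there were 1898 probes (9.48%), of which 1352 (6.75%) were higher and 546 (2.73%) lower with normal sodium and AngII. That split depends on the scaling: 71.2% of these probes were higher here, against 59.1% after quantile normalization and 37% in the authors' own normalized values. Weighting arrays by their scatter about the group means gave 78 calls, 65 higher and 13 lower, among them the collagens Col8a1 and Col3a1. Below, genes are described by their values, and none of them is called changed. Over the 11211 genes measured, each taken at its brightest probe, 849 (7.57%) were higher and 359 (3.2%) lower at an unadjusted p under 0.05. The difference was above 0 for 6069 genes (54.1%). For 1290 genes (11.5%) all 3 arrays with normal sodium and AngII lay above all 3 low sodium arrays, and for 878 (7.83%) all lay below. These shares are the background against which the members of each gene group are read.

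The regions before a listed start of each of 5 genes that carry the results are shown first. They were chosen from the natriuretic peptides (Nppb, Nppa), from the matrix genes (Loxl1, Cilp) and from the genes lower with normal sodium and AngII (Plcd4). Each is the 250 bases before 1 listed start of the gene in RefSeq (build GRCr8, rat), written 5′ to 3′ on the gene's strand. The windows are chr5:163699758-163700007 (plus strand) for Nppb, chr5:163711934-163712183 (plus) for Nppa, chr8:67612225-67612474 (minus) for Loxl1, chr8:74672198-74672447 (plus) for Cilp and chr9:83566014-83566263 (plus) for Plcd4. For Cilp and Plcd4 the gene itself begins earlier in RefSeq, at 74671696 and 83564616, so these windows lie inside the gene. Distances below count from the listed start. Capitals mark matches on either strand to the motifs searched. The basal promoter motifs were TATAAA, bound by the general initiation machinery, GGGCGG, known for binding of Sp factors, and CCAAT, known for binding of nuclear factor Y. Motifs of heart and matrix regulators were TGATAA for cardiac zinc finger factors of the GATA family, CATTCC for the TEAD family (the M-CAT motif) and CAGACA for Smad proteins. The CArG box of serum response factor was searched by its usual form.
Nppb: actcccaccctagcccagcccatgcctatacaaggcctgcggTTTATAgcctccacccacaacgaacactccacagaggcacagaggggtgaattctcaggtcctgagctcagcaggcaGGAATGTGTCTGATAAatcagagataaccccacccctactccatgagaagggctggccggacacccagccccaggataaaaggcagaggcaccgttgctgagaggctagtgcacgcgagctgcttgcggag
Nppa: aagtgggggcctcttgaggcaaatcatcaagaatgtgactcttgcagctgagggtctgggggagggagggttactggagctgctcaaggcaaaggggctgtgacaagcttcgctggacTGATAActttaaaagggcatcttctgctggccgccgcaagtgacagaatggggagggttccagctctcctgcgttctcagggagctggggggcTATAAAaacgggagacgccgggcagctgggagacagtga
Loxl1: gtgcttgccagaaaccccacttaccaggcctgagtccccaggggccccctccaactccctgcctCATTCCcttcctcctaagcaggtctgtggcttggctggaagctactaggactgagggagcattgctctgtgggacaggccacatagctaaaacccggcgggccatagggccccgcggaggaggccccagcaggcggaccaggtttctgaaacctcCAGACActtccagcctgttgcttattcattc
Cilp: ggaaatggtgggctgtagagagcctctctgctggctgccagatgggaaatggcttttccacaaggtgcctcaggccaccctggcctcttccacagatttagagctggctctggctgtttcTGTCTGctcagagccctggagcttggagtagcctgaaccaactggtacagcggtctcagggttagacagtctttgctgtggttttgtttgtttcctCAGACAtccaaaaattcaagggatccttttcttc
Plcd4: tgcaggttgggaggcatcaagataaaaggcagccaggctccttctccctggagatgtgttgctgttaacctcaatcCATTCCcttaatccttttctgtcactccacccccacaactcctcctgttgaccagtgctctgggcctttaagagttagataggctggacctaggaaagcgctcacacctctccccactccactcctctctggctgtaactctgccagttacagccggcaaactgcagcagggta
Nppb held TATAAA 208 bases before its start on the opposite strand. It also held the M-CAT, Smad and GATA letters as 1 overlapping run, starting 131, 125 and 121 bases before the start. In Nppa, TGATAA lay 132 bases and TATAAA 39 bases before the start. Loxl1 had CATTCC at 186 and CAGACA at 31 bases, Cilp had CAGACA at 130 (opposite strand) and 34 bases, and Plcd4 had only CATTCC, at 174 bases. Among 33469 rat promoters of the same length, TGATAA occurred in 7.97%, CATTCC in 12.1%, TATAAA in 12.9% and CAGACA in 17.2%. The searched CCAAT (34%), GGGCGG (30.5%) and CArG (1.5%) letters did not occur in these 5 windows. A match is a description of the letters.

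Collagens stood higher with normal sodium and AngII throughout the family. Of 18 listed collagen genes 12 were measured, and all 12 had a positive difference, with a median of 0.65 on the log2 scale against 0.02 over all genes. In 11 of the 12 the groups did not overlap and the unadjusted p was under 0.05. The exception, Col15a1, differed by 0.20. The median was 0.79, 0.45 and 0.74 on the 3 slides, and it ranged from 0.55 to 0.75 over 19 other ways of processing. In bulk tissue, more cells of a type and more RNA per cell cannot be told apart.

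Col3a1, which encodes the fibrillar collagen III of the interstitial network, had the smallest p of all genes that were higher. It measured 3.17, 3.34 and 3.45 in low sodium and 4.25, 4.17 and 4.26 in normal sodium with AngII. Every infused array was above every low sodium array, by at least the spread within either group, and the difference was 0.90 ± 0.12 (standard error, n = 3 per group), or 1.87-fold (unadjusted p = 1.32e-05, adjusted p = 0.132). Col8a1, a short-chain collagen of vessel walls, measured -2.19, -2.21 and -1.43 in low sodium against a tight cluster at -0.49, -0.53 and -0.55. Its difference was 1.42 ± 0.23 (adjusted p = 0.182). The chains of collagen I gave 0.72 ± 0.20 for Col1a1 and 0.69 ± 0.15 for Col1a2, and a second Col1a1 probe gave 0.94. Col16a1, a fibril-associated collagen, stood 0.73 ± 0.15 higher.

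**Figure D1:**
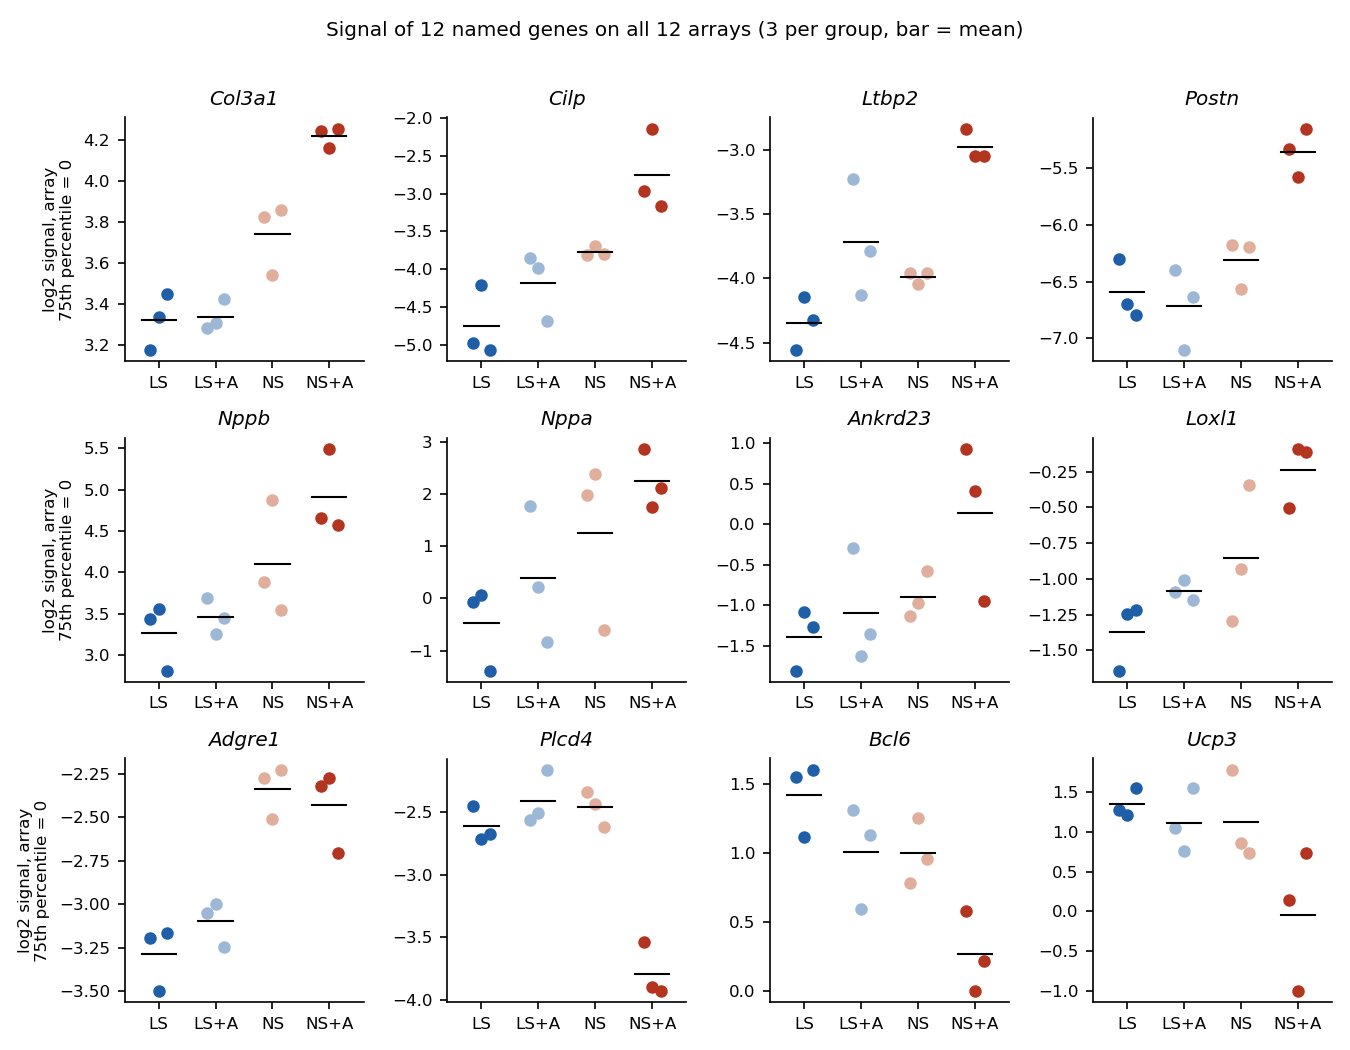
Log2 signal of 12 genes (array 75th percentile = 0) on all 12 arrays, grouped as low sodium (LS), low sodium with AngII (LS+A), normal sodium (NS) and normal sodium with AngII (NS+A). Points are arrays and bars are means of 3; in each panel the NS+A points do not overlap the LS points, above them for 9 genes from Col3a1 to Adgre1 and below them for Plcd4, Bcl6 and Ucp3.

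Other matrix proteins stood higher as well. Of 26 measured glycoproteins, proteoglycans and elastic fibre genes, 24 had a positive difference and in 13 the groups did not overlap, all of them higher. The 2 below 0 were Spp1 (-0.40) and Ccn1 (-0.19). The list median was 0.48, and 0.66, 0.61 and 0.46 by slide. Members named only as the exceptions of a count were chosen after their values were seen.

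Cilp, a secreted matrix protein that binds TGF-beta, had low sodium values of -4.97, -4.21 and -5.07 against -2.96, -2.14 and -3.17 with normal sodium and AngII. The groups lay more than 1 log2 unit apart, and the difference was 1.99 ± 0.31, or 3.98-fold (adjusted p = 0.182). Ltbp2, a microfibril protein of the latent TGF-beta binding family, measured -4.56, -4.15 and -4.33 against -2.83, -3.04 and -3.05. That is a difference of 1.37 ± 0.20, and a second probe gave 1.31. Postn, a matricellular protein made by activated fibroblasts, was at -6.30, -6.69 and -6.79 against -5.33, -5.57 and -5.15. Its difference of 1.24 ± 0.21 became 0.51 after a background correction by normexp and 0.36 in the authors' values. Mfap4, another microfibril protein, stood 0.97 ± 0.17 higher. Ccn2, the connective tissue growth factor, overlapped: 0.03, 0.37 and 0.23 against 0.89, 1.83 and -0.07 (0.67 ± 0.40, unadjusted p = 0.126). Without replicate 2 of the infused group the difference was 0.20.

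Enzymes that modify and crosslink the matrix were listed together with proteases and their inhibitors. Of 26 measured genes, 21 were above 0, 10 had an unadjusted p under 0.05, all higher, and the median was 0.25. Loxl1, a lysyl oxidase of elastic fibres, measured -1.64, -1.25 and -1.22 against -0.50, -0.09 and -0.12, a difference of 1.13 ± 0.22 that was nearly equal on the 3 slides. Its relatives Loxl2 and Loxl3 differed by 0.74 ± 0.17 and 0.51 ± 0.17, and the latter by 0.21 in the authors' values. Serpine2, a serine protease inhibitor, stood 0.76 ± 0.14 higher, and Timp1, an inhibitor of metalloproteinases, 0.39 ± 0.16. Mmp11 (-0.26) was the only member whose arrays all lay lower.

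The TGF-beta pathway list holds ligands, receptors, Smads, binding proteins and inhibitors. Of its measured genes, 19 of 25 were above 0 and 5 had an unadjusted p under 0.05, all higher, with a median of 0.20. By slide the median was 0.30, 0.44 and -0.06, and it was 0.05 without slide 2. Tgfb1 itself measured -2.84, -2.44 and -2.08 against -1.85, -1.41 and -1.96, with no overlap but with a difference of only 0.12 on the third slide (0.71 ± 0.26, adjusted p = 0.424). Bambi, a decoy receptor, differed by 0.50 ± 0.16 (0.31 without slide 2), Inhbb, an activin subunit, by 0.44 ± 0.14 (0.16 at a second probe) and Fstl1, a follistatin-like protein, by 0.51 ± 0.16.

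**Figure D2:**
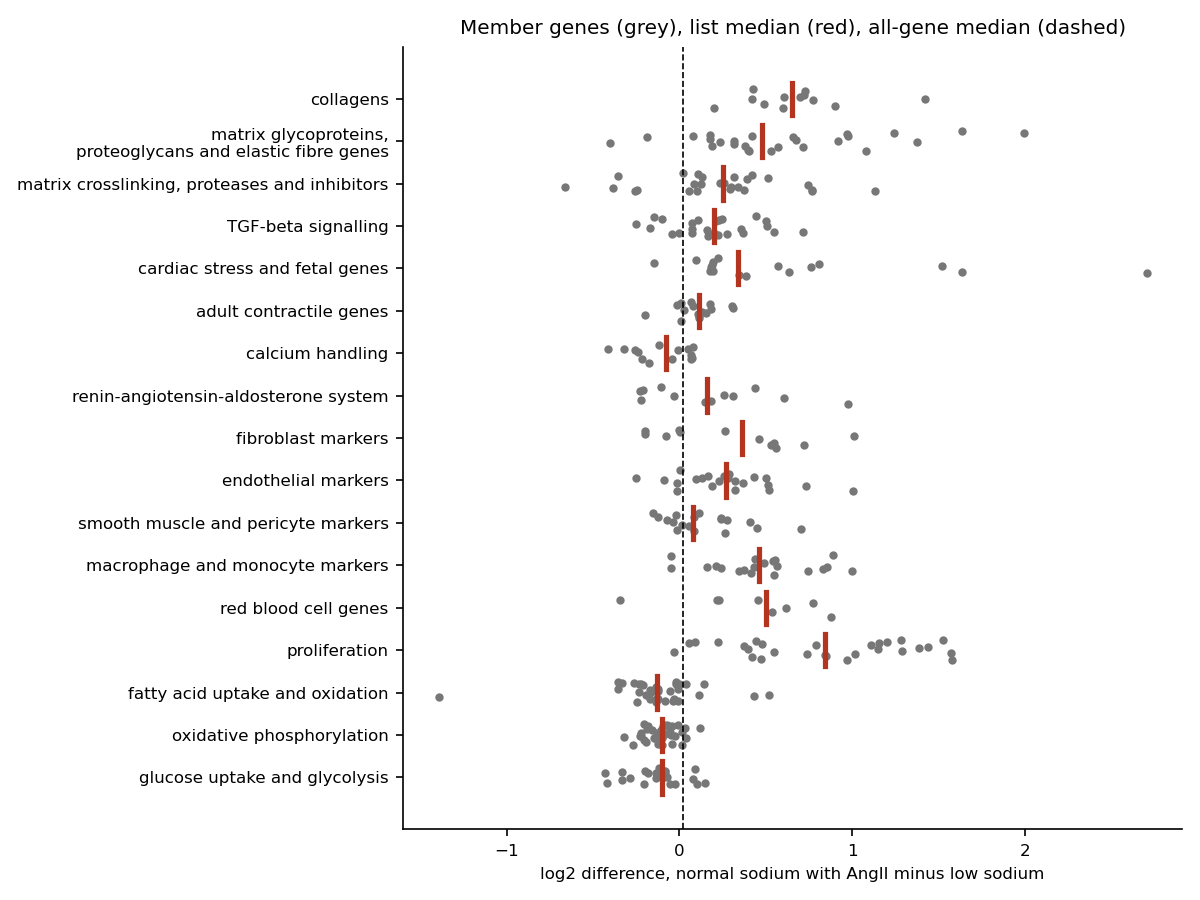
Log2 differences (normal sodium with AngII minus low sodium, horizontal axis) of the measured members of 17 gene lists. Grey points are genes, red bars are list medians (0.65 for collagens, 0.84 for proliferation, -0.13 for fatty acid oxidation) and the dashed line is the median of all genes, 0.02.

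The natriuretic peptides had the largest differences of the cardiac stress genes. Of the 17 measured stress and fetal genes, 16 were above 0 and 7 did not overlap, all higher, with a median of 0.34 (0.21 without replicate 3 of low sodium). Nppb, B-type natriuretic peptide, was at 3.44, 3.56 and 2.81 in low sodium and at 4.66, 5.49 and 4.57 with normal sodium and AngII. The lowest infused array stood about 1 unit above the highest low sodium array, and the difference was 1.64 ± 0.35, or 3.11-fold (unadjusted p = 0.000799, adjusted p = 0.224). Nppa, the atrial natriuretic peptide, measured -0.07, 0.07 and -1.39 against 2.86, 1.74 and 2.12, a difference of 2.70 ± 0.82 (adjusted p = 0.324). Its groups did not overlap, although its spread within the low sodium group was wider than that of Nppb.

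Atrial tissue also makes Nppa, so other atrial markers were set beside it. The atrial light chain Myl7 was at -0.03, -2.17 and 0.08 against -1.73, -3.87 and -2.30, and sarcolipin (Sln) at 0.85, -1.66 and 2.13 against -3.10, -2.74 and 0.65. Both stood lower with normal sodium and AngII, by 1.92 ± 1.05 and 2.17 ± 1.22 log2 units, overlapped and spread by over 2 units within a group. Without replicate 3 of low sodium Sln differed by -1.32, and without replicate 3 of the infused group by -3.36. Dkk3 differed by -0.36 ± 0.20, and by -0.23 without replicate 1 of low sodium. Summed over the 7 measured atrial markers, the level ranged from 121 to 141 times the array percentile in low sodium and from 128 to 141 in the other group. This sum includes Nppa itself. Myl7 and Sln make up only a small part of it, so it says little about them or about the share of atrial tissue.

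Titin-associated ankyrin repeat proteins respond to stretch of the sarcomere. Of these, Ankrd23 measured -1.81, -1.09 and -1.27 against 0.92, 0.41 and -0.94. The third infused array lay close to the low sodium values, and the difference of 1.52 ± 0.46 became 0.91 without slide 1. Ankrd1 differed by 0.63 ± 0.23 with all 3 infused arrays between 6.46 and 6.49. Acta1, the skeletal actin re-expressed in hypertrophy, was 0.81 ± 0.31 higher. The myosin heavy chains, whose exchange marks hypertrophy in rodents, showed no such gap: Myh7 differed by 0.19 ± 0.14 and Myh6 by 0.06 ± 0.18, both with overlapping arrays, and Myh6 came to -0.03 after quantile normalization.

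Genes of the adult sarcomere stayed near 0, with a median of 0.11 over 16 genes and none at an unadjusted p under 0.05. Mybpc3 (0.30 ± 0.16) and Myom2 (0.31 ± 0.30) were the members whose arrays did not overlap. Calcium handling genes had a median of -0.08, and 2 of 14 were lower at an unadjusted p under 0.05. These were Hrc, a calcium-binding protein of the sarcoplasmic reticulum (-0.32 ± 0.12), and Jph2, which couples it to the cell membrane (-0.41 ± 0.18).

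Within the renin-angiotensin system the converting enzyme stood apart from the receptor. Ace, which forms AngII, was at -1.33, -1.45 and -1.35 against -0.74, -0.76 and -0.83 (0.60 ± 0.18), and its second probe gave 0.68. The receptor Agtr1a was at -3.19, -3.22 and -3.29 against -3.19, -3.42 and -3.18, a difference of -0.03 ± 0.12. The mineralocorticoid receptor Nr3c2 differed by -0.23 ± 0.14 without overlap, and Enpep, an aminopeptidase that degrades AngII, by 0.31 ± 0.18, which became 0.19 without replicate 2 of the infused group and 0.18 without replicate 1 of low sodium. A second Nr3c2 probe gave -0.09. On the natriuretic side, the receptor Npr1 stood 0.43 ± 0.17 higher (0.22 without slide 1) and Corin, the protease that activates the peptides, 0.83 ± 0.36 lower.

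Among ion transport genes, Atp1b1, a beta subunit of the sodium pump, differed by -0.40 ± 0.13, and by -0.26 without slide 2. The chloride cotransporter Slc12a2 (0.40 ± 0.14) and the carbonic anhydrase Car4 (0.41 ± 0.18) stood higher. Over all 28 transport genes the median was -0.04, with 2 higher and 2 lower at an unadjusted p under 0.05.

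Cell cycle genes had the highest list median, 0.84 over 28 measured genes. Of these 27 were above 0, the exception being Rrm1 (-0.03), and 19 had an unadjusted p under 0.05, all higher. Their excess was uneven: the median was 0.68 and 0.32 on slides 1 and 2 and 1.61 on slide 3, and it dropped to 0.40 without slide 3. Ccnb2, a mitotic cyclin, shows this: low sodium was at -6.17, -5.55 and -6.03, and the infused arrays were at -5.19, -4.75 and -3.08. Its difference of 1.58 ± 0.49 was 0.94 without that last array, 0.83 with normexp and 0.74 in the authors' values. Ccnb1 (0.97 ± 0.30) had the same high array and came to 0.55 without it. With normexp Ccnb1 came to 0.64, and in the authors' values to 0.63. The G1 cyclins Ccnd1 (0.85 ± 0.24) and Ccnd2 (0.74 ± 0.21) were spread over all slides. Cdkn1c, a cyclin-dependent kinase inhibitor, stood lower: -0.95, -0.85 and -0.93 against -1.44, -1.56 and -1.45 (-0.58 ± 0.11, adjusted p = 0.182), and -0.38 at a second probe. The inhibitors Cdkn2c (0.66 ± 0.25) and Cdkn2d (0.32 ± 0.13) stood higher without overlap, and the 8 measured inhibitors had a median of 0.06, with 6 above 0.

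**Figure D3:**
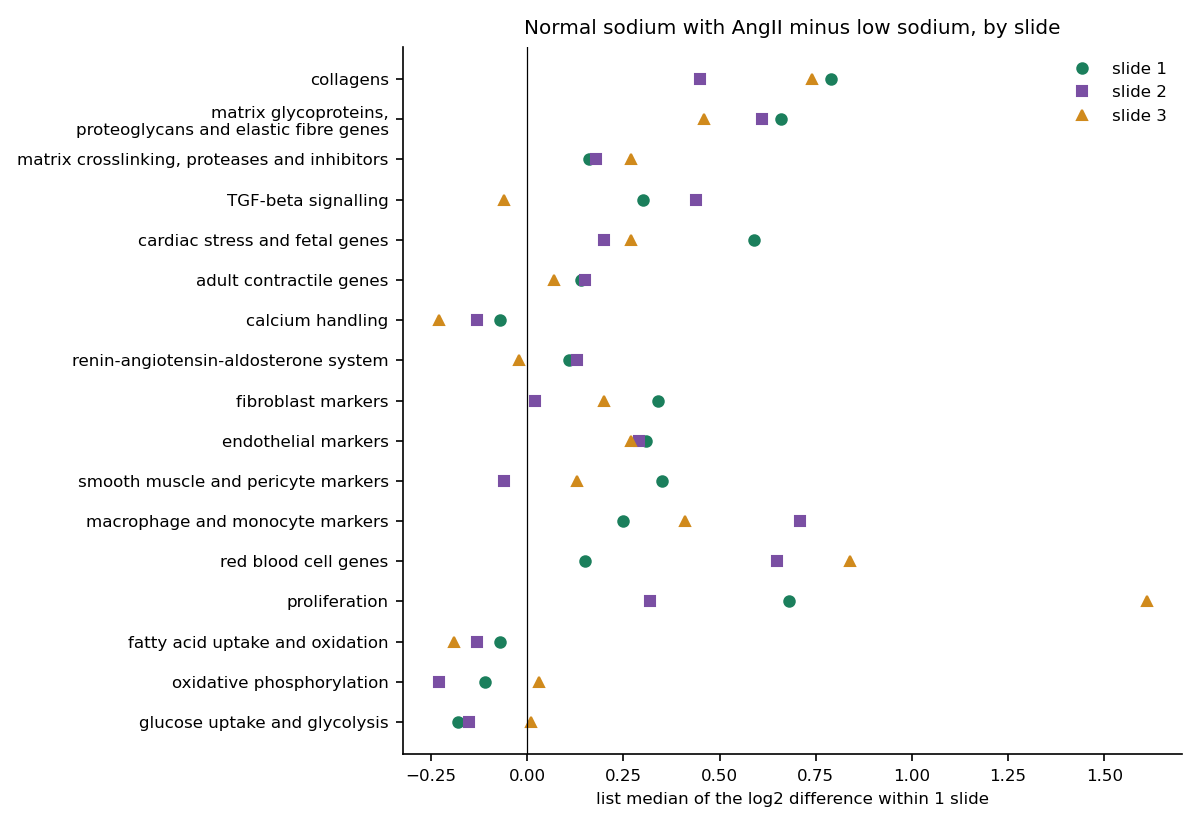
Median log2 difference of 17 gene lists (horizontal axis) taken within each of the 3 slides, where 1 array of either group lay on the same slide. Collagens stayed between 0.45 and 0.79, while proliferation genes ran from 0.32 to 1.61.

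Markers of other cell types were set beside the matrix genes, and their part in the matrix values was not tested. Medians were 0.02 for adipocyte, -0.17 for skeletal muscle and -0.29 for atrial markers. Macrophage markers had a median of 0.46 (0.27 without replicate 2 of low sodium), with 18 of 20 above 0 (Lyz2 and Cx3cr1 were both at -0.05) and 10 at an unadjusted p under 0.05, all higher. Their summed level was 22.7 to 31.4 in low sodium and 28.3 to 31.2 with normal sodium and AngII. Adgre1, the F4/80 antigen, measured -3.20, -3.50 and -3.16 against -2.32, -2.27 and -2.70 (0.85 ± 0.15, adjusted p = 0.182). Trem2 (0.83 ± 0.22) and Aif1 (0.49 ± 0.14, and 0.33 at a second probe) were higher on every slide. Mrc1, the mannose receptor, differed by 0.89 ± 0.27, but by 0.21 in the authors' values and 0.55 without replicate 2 of low sodium.

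Other immune markers were fewer. Of 17 measured lymphocyte, neutrophil and mast cell genes, 3 had an unadjusted p under 0.05, all higher, and the median of 0.36 turned to -0.10 in the authors' values. Cd4 differed by 0.76 ± 0.19 and Kit, a mast cell receptor, by 0.94 ± 0.26, and Cd4 by 0.47 with normexp and 0.39 in the authors' values. The T cell marker Cd3e was not well above background in any complete group, whereas Cd3d, Cd3g, Cd8a, Cd8b, Cd2 and Lck were. Cxcr4, a chemokine receptor, stood 0.97 ± 0.28 higher, and 0.53 without slide 2. Of the MHC class II genes, RT1-Bb had 1 infused array at -8.93 where the other 5 lay between 0.14 and 1.66, and a second probe of the gene gave a difference of 1.01.

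Endothelial markers had a median of 0.27 over 22 genes, with 7 higher at an unadjusted p under 0.05 and none lower. Their summed level did not overlap, at 39.8 to 44.4 against 47.4 to 49.3. Aplnr, the apelin receptor, measured -1.83, -1.32 and -1.04 against -0.41, -0.14 and -0.64 (1.00 ± 0.22), and Tie1, Sox18 and Erg differed by 0.73 ± 0.26, 0.52 ± 0.16 and 0.50 ± 0.13, with Sox18 at 0.27 without slide 2. Angiogenic ligands included Vegfd (1.34 ± 0.28, and 0.57 in the authors' values), Angpt2 (0.66 ± 0.19) and, in the opposite direction, Angpt1 (-0.86 ± 0.36, and -0.56 without slide 2). Adm, the vasodilator adrenomedullin, was 0.51, 0.59 and 0.32 against 1.16, 1.19 and 1.23 (0.72 ± 0.13, adjusted p = 0.182).

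Fibroblast identity genes were divided. Of 12 measured, with a median of 0.36 (0.14 without slide 1), 8 were above 0 and 3 had an unadjusted p under 0.05, namely Vim, Fap and Pi16. Vim, an intermediate filament of mesenchymal cells, was at 1.42, 1.52 and 1.81 against 2.18, 2.34 and 2.40 (0.72 ± 0.12). Fap, a surface protease of activated fibroblasts, differed by 1.01 ± 0.22. Pi16 differed by 0.54 ± 0.18, and by 0.53 at a second probe. The summed level of the list overlapped between groups (64.2 to 72.7 against 53.7 to 73.7). Pdgfra (0.00) and Tcf21 (0.01), named after their values were seen, were level. Smooth muscle and pericyte markers had a median of 0.08, with Mcam (0.70 ± 0.18), Pdgfrb (0.41 ± 0.15) and Rgs5 (0.28 ± 0.12) as the 3 at an unadjusted p under 0.05.

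Red blood cell genes had a median of 0.50 over 8 genes, of which 5 did not overlap and were higher. The median was uneven, at 0.15, 0.65 and 0.84 by slide, and it was 0.83 without slide 1 and 0.32 without slide 3. The beta globin Hbb-b1 measured 7.14, 6.73 and 6.65 against 7.30, 7.36 and 7.47 (0.54 ± 0.15). Alas2, the erythroid enzyme that starts heme synthesis, was at 1.57, 0.77 and 0.81 against 1.84, 1.85 and 2.08 (0.88 ± 0.26). Their summed level was 346 to 446 in low sodium and 498 to 544 with normal sodium and AngII. Skeletal muscle markers summed to 5.99 to 8.67 against 5.57 to 8.91. Of the adipocyte markers, Adipoq, Lep, Retn, Cidec, Ucp1 and Adrb3 did not reach background in any complete group.

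NADPH oxidase and antioxidant genes had a median of 0.14 over 22 genes, with 14 above 0, and 4 were higher and 1 lower at an unadjusted p under 0.05. Hmox1, heme oxygenase 1, measured -1.14, -1.85 and -2.33 against -0.73, 0.24 and -0.86 (1.32 ± 0.32). Nox4, an NADPH oxidase, was well above background on 1 of the 3 low sodium arrays, and its difference of 1.74 ± 0.52 was 0.02 in the authors' values and 1.13 without replicate 1 of low sodium. Gpx3, a secreted glutathione peroxidase, differed by 0.61 ± 0.19. Outside that list, Hamp, the iron regulator hepcidin, was at -1.31, -1.38 and -1.02 against -0.10, 1.08 and 0.13 (1.60 ± 0.28, adjusted p = 0.182). The metallothionein Mt1 differed by 1.91 ± 0.62, and by 1.25 without replicate 2 of the infused group.

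Genes of fatty acid oxidation and of oxidative phosphorylation leaned lower by small amounts. Of 34 measured genes of fatty acid uptake and oxidation, 28 were below 0 and 8 did not overlap, all lower, with a median of -0.13. Ucp3, a mitochondrial carrier that follows fatty acid supply, measured 1.28, 1.22 and 1.56 against 0.15, -1.01 and 0.74 (-1.39 ± 0.42, and -0.91 without replicate 2 of the infused group). Acsl1, which activates fatty acids, differed by -0.35 ± 0.15, and Hadhb, of the trifunctional protein, by -0.23 ± 0.10. Without slide 2 Acsl1 differed by -0.16, and Hadhb by -0.11 without slide 3 and -0.15 after quantile normalization. Oxidative phosphorylation genes were below 0 in 33 of 38 cases and did not overlap in 10, all lower, with a median of -0.10 and 1 unadjusted p under 0.05 (Ndufs7, -0.32 ± 0.14). Slide 3 gave this list a median of 0.03, and the median was -0.03 without slide 2.

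Glycolysis genes also had a median of -0.10 (-0.04 in the authors' values), and 19 of 23 were below 0. Pfkm, the muscle phosphofructokinase, was at 4.81, 4.79 and 4.89 against 4.47, 4.53 and 4.48, a narrow but regular gap of -0.33 ± 0.09 (adjusted p = 0.295). The insulin-dependent glucose transporter Slc2a4 differed by -0.42 ± 0.17 with overlap, and by -0.20 without replicate 1 of the infused group. Srebf1, a regulator of lipid synthesis, stood 0.91 ± 0.36 lower, and 0.60 lower without slide 2. Its list of fructose use and lipogenesis genes did not lean lower, with a median of 0.05 and 10 of 18 above 0.

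The gene with the smallest p of all was Plcd4, a phospholipase C, which lay lower with normal sodium and AngII. It measured -2.46, -2.71 and -2.67 in low sodium and -3.54, -3.90 and -3.93 in the other group, with no overlap. The difference was -1.17 ± 0.15 (unadjusted p = 1.23e-05, adjusted p = 0.132), and a second probe gave -1.20. The related Plcd1 differed by 0.30 ± 0.12 (0.17 without slide 2). Others that stood lower without overlap were Bcl6, a transcriptional repressor (-1.16 ± 0.23), Susd3 (-1.62 ± 0.31), Nudt4, a phosphatase of inositol pyrophosphates (-0.73 ± 0.14), and Ces1d, a lipid esterase (-0.83 ± 0.15). Prima1, an anchor of acetylcholinesterase, differed by -1.59 ± 0.27, but its second probe gave 0.02. Grid1 was not well above background on any infused array. With these values raised to at least each array's lowest signal flagged well above background, its mean there was 1.5-fold lower. Dhrs7c, Tex261, Kctd8 and Arl5c differed by -0.44, -0.83, -0.93 and -0.88, but with normexp Arl5c differed by -0.28, Kctd8 by -0.43 and Grid1 by -0.12.

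The remaining genes at the top of the higher list were Gatm, an enzyme of creatine synthesis (0.71 ± 0.13, but 0.25 at a second probe), Car5b, a mitochondrial carbonic anhydrase (1.18 ± 0.21, and 0.29 in the authors' values), and F2rl2, a thrombin receptor (1.60 ± 0.29, above background on 1 of 3 low sodium arrays and 0.27 in the authors' values). Tubulins split: Tuba3b was 0.84 ± 0.17 higher and Tuba8 0.65 ± 0.22 lower. Clock genes also split, with Bmal1 at 1.25, 1.02 and 1.31 against 0.71, 0.42 and 0.81 (-0.55 ± 0.16) and Cry1 at -0.77 ± 0.26, while Dbp stood 0.78 ± 0.31 higher with overlap. Without replicate 2 of the infused group, Cry1 differed by -0.50 and Dbp by 0.47. Egr1, an immediate early gene, differed by -1.64 ± 0.59, and by -0.98 without replicate 1 of the low sodium group. Klf6, of the same list, stood 0.53 ± 0.12 higher without overlap, and the 21 listed genes had a median of -0.06. Klf15, a glucocorticoid-responsive factor, differed by -0.49 ± 0.19. Its list of 19 corticosteroid-responsive genes, which also holds Mt1, was divided. The list median was -0.10, with 3 higher and 3 lower at an unadjusted p under 0.05.

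Because the comparison changes diet and infusion at once, each difference is the sum of 2 parts that the full design separates: the mean sodium difference over both infusion states and the mean AngII difference over both diets. The opposite corners, low sodium with AngII against normal sodium, share no array with the comparison above, and there the 2 parts oppose each other. That comparison had 0 of 20020 probes (0%) at an adjusted p under 0.05 and 1166 (5.82%) at an unadjusted p under 0.05. The mean sodium difference gave 0 calls (0%) and 2508 probes (12.5%) at an unadjusted p under 0.05; by gene, 9.27% were higher and 4.49% lower. The mean AngII difference gave 0 calls (0%) and 576 probes (2.88%). The smallest adjusted p of the named genes for sodium was 0.116.

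**Figure D4:**
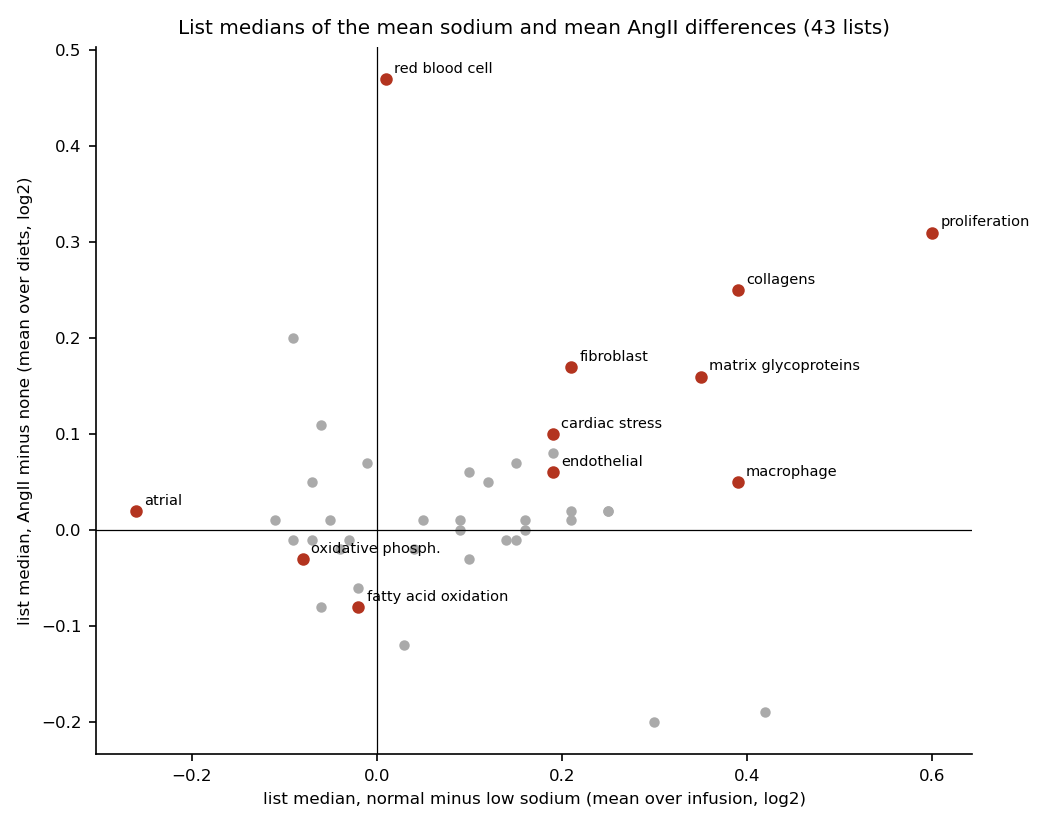
Medians of 43 gene lists for the mean sodium difference (horizontal axis, normal minus low, log2) and the mean AngII difference (vertical axis, infused minus not, log2). Red points are named lists; collagens lie at 0.39 and 0.25, macrophage markers at 0.39 and 0.05, and red blood cell genes at 0.01 and 0.47.

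For Col3a1 the parts were 0.65 ± 0.08 for sodium and 0.25 ± 0.08 for AngII, and at the opposite corners the gene differed by -0.41. Normal sodium without infusion lay in between, at 3.83, 3.54 and 3.86, while low sodium with AngII, at 3.28, 3.31 and 3.42, lay within the range of low sodium. The AngII part is thus the mean of 0.02 on low sodium and 0.48 on normal sodium. The collagen list had medians of 0.39 for sodium, 0.25 for AngII and -0.20 at the opposite corners. Nppb split into 1.14 ± 0.25 and 0.50 ± 0.25, and Nppa into 1.78 ± 0.58 and 0.92 ± 0.58. Ltbp2 was one matrix gene whose AngII part, 0.82 ± 0.14, was the larger value beside 0.55 ± 0.14 for sodium.

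For the macrophage gene Adgre1 nearly all of the difference was in the sodium part. Adgre1 gave 0.81 ± 0.11 for sodium and 0.05 ± 0.11 for AngII. It was at -2.27, -2.51 and -2.23 in uninfused normal sodium and at -3.05, -3.00 and -3.25 in infused low sodium, so these groups did not overlap either. A larger sodium value was also found for Cxcr4 (0.92 ± 0.20 and 0.05 ± 0.20), for Aplnr (0.83 ± 0.16 and 0.17 ± 0.16) and for Hamp (1.27 ± 0.20 and 0.34 ± 0.20). The macrophage list had medians of 0.39 and 0.05.

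Globin genes were the reverse. Hbb-b1 gave -0.02 ± 0.10 for sodium and 0.56 ± 0.10 for AngII, and Alas2 gave 0.05 ± 0.18 and 0.82 ± 0.18. Both also stood higher at the opposite corners, where AngII was given with low sodium, by 0.58 and 0.78. The list medians were 0.01 for sodium and 0.47 for AngII. By diet, the list median for AngII was 0.11 on low sodium and 0.83 on normal sodium. Normal sodium against low sodium, both uninfused, gave -0.42. The summed level in low sodium with AngII, 400 to 444, lay within that of low sodium, 346 to 446. Hadhb (0.00 ± 0.07 and -0.23 ± 0.07) and Arl5c (-0.14 ± 0.13 and -0.75 ± 0.13) had a larger AngII value as well. Plcd4 divided evenly, at -0.61 ± 0.11 and -0.56 ± 0.11. Its low level was seen with both changes together: the uninfused normal sodium arrays (-2.34, -2.43 and -2.62) and the infused low sodium arrays (-2.57, -2.51 and -2.16) both lay with low sodium. Bcl6 and Ucp3 divided evenly too, with -0.58 and -0.57 for Bcl6 and -0.69 and -0.70 for Ucp3.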

How the data were processed

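RNA of left ventricles was hybridised to 12 one-colour Cy3 Agilent arrays. The deposited spot intensities were made with Feature Extraction 10.7.3.1, per the file headers, with the local background taken off and a spatial trend removed; arrays were not scaled to each other. The submitters' processing notes name Feature Extraction 11.0.1.1, R 3.3.04 and limma. Other columns that the authors deposited are flags of 0 or 1 per spot, such as being well above background. The authors' series matrix holds log2 values for 20438 probes. How these were normalized is not given in the sources used here, and they served as an alternative.

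Spots flagged as outliers (from 296 up to 421 on an array) were dropped, as were 1377 control spots. From each log2 signal the log2 of that array's 75th percentile was subtracted, and repeat spots of a probe were averaged. Tested probes had 0.5 or more of their spots well above background on each of the 3 arrays of some group. Names came from RefSeq (GRCr8): 18758 of 30367 probes matched 1 symbol, 0 matched several and 11609 none. With limma 3.58.1 in R 4.3.3, 1 mean per group was fitted over all 12 arrays, with two-sided tests adjusted by Benjamini-Hochberg over 20020 probes. Errors after ± are limma standard errors. The fit was tested on simulated data.

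Arrays of 1 replicate number lay on 1 slide. Their deviations from the group means correlated at 0.432, 0.171 and 0.12 between the compared groups, and other pairs had a median of -0.187. Deviations from a group mean sum to 0, which pulls the other pairs down, so that median is no independent baseline. Arrays of 1 slide thus tended to deviate together. The main fit had no term for the slide, and the replicate block was run as an alternative. Each group had its own position on every slide, so position and group cannot be told apart.

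The members and lists were chosen with earlier results of these data known: 43 lists with 823 genes, of which 718 were tested. Named genes are, in each direction, 12 without overlap and of smallest p (any past the threshold come first), up to 4 of smallest p per list, and 13 set genes. Summed marker levels add a list's linear signals. The alternatives were normexp (offset 50), quantile normalization, the authors' values, other filters on dim probes, only the 6 arrays, the replicate block, array weights, the mean of a gene's probes, and leaving out arrays or slides. A percentile over probe means was added after seeing the data. Some genes are not reported here.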

Additional observations from a re-analysis of the deposited data

How the results depend on the processing

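Among the alternatives fitted over all probes, calls appeared with array weights, which gave 78, and without slide 1, which gave 1. The mean of a gene's probes was run for named genes and list medians only. The replicate block gave 0 calls and 1989 probes at an unadjusted p under 0.05, and it changed no other call. The unadjusted count of 1898 became 3547 with array weights and 874 to 2298 when arrays or slides were left out. It was 1236 without replicate 2 of the infused group, 1107 without replicate 1 of low sodium, 1142 without slide 1 and 874 without slide 2. For the mean sodium difference, 0 calls became 4 with normexp, 1 with no filter on dim probes and 413 with array weights; a fit on only the 6 arrays cannot give it. The array weights ran from 0.245 (normal sodium, replicate 1) to 5.91 (low sodium with AngII, replicate 2). Both of these arrays lie outside the 6 compared. The cause of the weights' effect was not tested. Of 43 list medians 30 were above 0, and 25 to 33 over the alternatives. Single-gene directions that reversed were Agtr1a (0.01 with normexp, 0.05 without replicate 2 of the infused group or without slide 2, and -0.10 to 0.05 over all arrays or slides left out), Myh6 (-0.03 with quantile normalization) and RT1-Bb (0.18 without replicate 1 of the infused group, 0.34 without slide 1, and -5.11 to 0.34 over all left out). Dim probes such as Postn, Nox4 and F2rl2 lie near the local background, and the size of their differences depended on the processing. In the main fit they differed by 1.24, 1.74 and 1.60. These values were 0.51, 0.38 and 0.46 with normexp, and 0.36, 0.02 and 0.27 in the authors' values. The cause was not tested.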
